A study of Homo sapiens with 8 samples.

Results

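SPTAN1 encodes alpha II spectrin, the alpha chain of the spectrin found in most cells outside the red blood cell lineage. Its G3BP1 sites were taken as all peaks on the plus strand of chromosome 9 that lay between 131314800 and 131396000 (hg19), the span given for the gene. This rule found 35 of the 4346 peaks deposited, 3 of 1421 in the list from untreated cells (Ctrl) and 32 of 2925 in the list from cells given PDS. The gene was chosen by these peak counts, which had been seen beforehand, so the difference between 3 and 32 peaks is a description and carries no test.

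The cells were HEK293T, an established human embryonic kidney line, and the assay was seCLIP, in which UV light links proteins to the RNA they touch, G3BP1 is pulled down with an antibody (IP), and the bound fragments are sequenced beside an input made without the antibody. Ctrl cells were not treated, and PDS cells received 20 µM PDS for 12 h before crosslinking; each condition had 2 IP and 2 input libraries. The labels do not spell out PDS, which in work on quadruplexes usually stands for pyridostatin, a ligand of these structures. The deposited lists hold 1 row per peak for both replicates together, with a value read as the log2 fold enrichment of IP over input and a value read as −log10 p.

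Alpha and beta spectrin chains pair side by side into long flexible rods, which cross-link short actin filaments into a meshwork under the plasma membrane. Both chains consist largely of repeated triple-helical units, so their mRNAs are long coding transcripts. G3BP1 is an RNA-binding protein at the core of stress granules, and guanine quadruplexes are structures in which guanines of 1 strand stack in planar tetrads. The series asks which mRNA sites G3BP1 occupies with and without the ligand. The sequences under the SPTAN1 peaks are not shown, since an hg19 genome was not used here; for the same reason the peaks were not placed in exons, introns or untranslated regions.

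Without PDS, SPTAN1 had 3 separate peaks far from each other. The peak at chr9:131343200-131343266 was 67 nt long, with a log2 fold of 3.59 (12.0-fold on the linear scale) and a −log10 p of 13.0. The peak at chr9:131346698-131346748 was 51 nt long and weaker, with a log2 fold of 3.24 and a −log10 p of 5.49. The peak at chr9:131395615-131395707 was 93 nt long and the most enriched of the 3, with a log2 fold of 4.46 (22.0-fold) and a −log10 p of 20.7. These values spread over much of the untreated list: the first stood above 55.1% of all Ctrl peaks in log2 fold, the weakest above 25.1% and the last above 91.2%. The last peak ended 293 nt before the 3′ border of the window, so it lay at the very end of the gene span, whereas the other two lay 28.4 and 31.9 kb after its 5′ border.

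With PDS, SPTAN1 carried 32 peaks that together covered 1350 nt, against 211 nt in the untreated list. They ran from chr9:131339139 to chr9:131381216, a span of 42.1 kb in the middle of the gene, of which the peaks filled 3.21%. No PDS peak lay in the first 24.3 kb of the window or after 66.4 kb. When peaks within 50 nt were joined, 22 separate regions remained, and the 21 gaps between them had a median of 1802 nt, with a shortest gap of 80 nt and a longest of 5038 nt. On the genome the peaks thus formed a chain of short sites over the gene body and not a single cluster. These are genomic distances that include any introns. Spacing along the spliced mRNA is unknown, since the peaks were not placed in exons. The locus that held the 32 peaks had more PDS than Ctrl peaks, as did 63.1% of the 1192 loci formed by chaining the peaks of both lists wherever those on 1 strand lay within 10000 nt; SPTAN1 was chosen for this difference, and nothing is read from it.

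**Figure D1:**
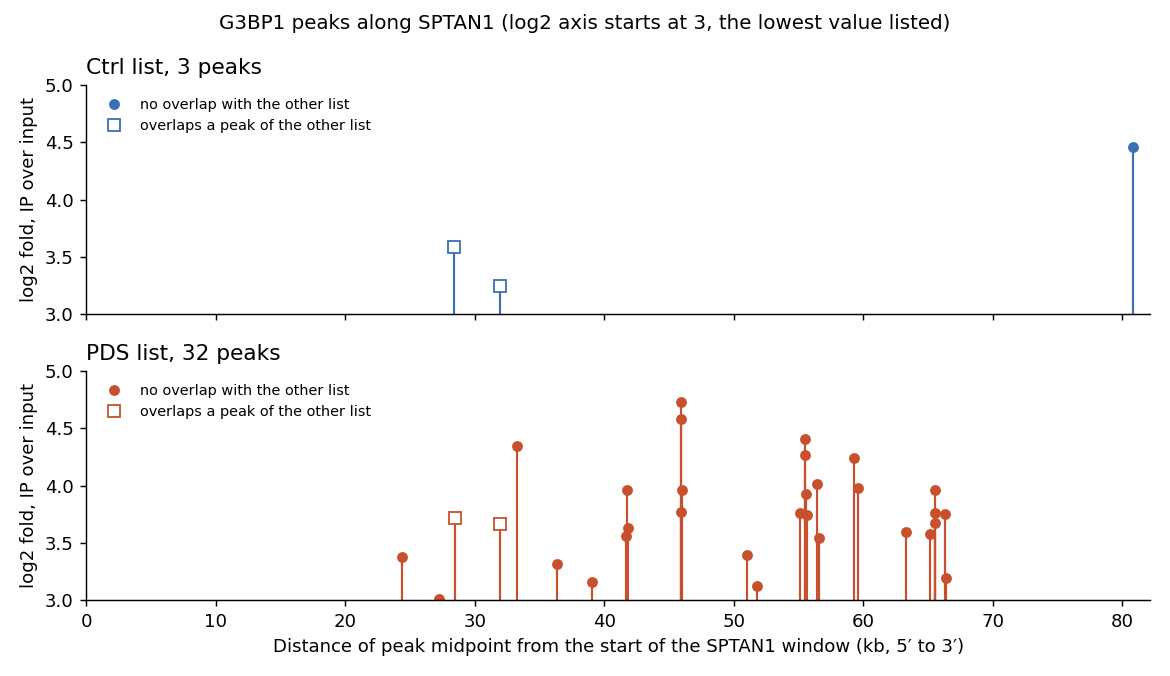
Peaks along SPTAN1 in the Ctrl list (upper panel) and the PDS list (lower panel). The x axis gives the distance of each peak midpoint from the start of the gene window in kb, and the y axis the authors' log2 fold of IP over input, starting at 3; open squares mark peaks that overlap a peak of the other list. The 32 PDS peaks lie between 24.3 and 66.4 kb, and the most enriched of the 3 Ctrl peaks lies beyond them at 80.8 kb.

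The 2 weaker Ctrl peaks each met a PDS peak. At the more 5′ site, the PDS peak at chr9:131343201-131343293 covered 98.5% of the Ctrl peak and reached further in the 3′ direction, with its midpoint 14 nt downstream. Its log2 fold was 3.72 against 3.59 in Ctrl, and its −log10 p was 34.7 against 13.0. At the second site, the PDS peak at chr9:131346722-131346789 shared 27 nt with the Ctrl peak, its midpoint lay 32.5 nt downstream, and it had a log2 fold of 3.66 against 3.24 and a −log10 p of 23.1 against 5.49. At both sites the PDS peak had the higher log2 fold, by 0.13 and 0.42. Over all 410 cases in which 1 Ctrl peak met 1 PDS peak, the PDS value was higher in 254 and the median difference was 0.15 (quartiles −0.22 and 0.63), so the 2 SPTAN1 sites lay inside the usual range. The lists give no value per replicate, and these differences could not be set against the spread between replicates.

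The strongest Ctrl peak of the gene, near its 3′ border, had no counterpart under PDS. The nearest PDS peak ended 14398 nt upstream of it. Of the 3 Ctrl peaks 1 was thus without a PDS peak, where 48.5% of all Ctrl peaks were. A missing peak means only that no region passed the limits of the PDS list there, which holds nothing under a log2 fold of 3. Weaker binding below that limit, in either list, cannot be seen.

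Of the 32 PDS peaks, 30 overlapped no Ctrl peak, and 2 did, a share of 6.25% (exact 95% binomial interval 0.766 to 20.8%, counting error only; peaks of 1 transcript are not independent). In the whole PDS list 69.4% of peaks overlapped no Ctrl peak. This share is part of the contrast by which the gene was picked, and nothing is read from its distance to the background. The 30 unmatched peaks had a median log2 fold of 3.76, against 3.47 for the 2001 unmatched PDS peaks elsewhere, and their median −log10 p was 20.0 against 15.3. On both measures the unmatched SPTAN1 peaks lay above the middle of their kind.

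The 5 most enriched PDS peaks of SPTAN1 lay at 3 places of the chain. The highest, at chr9:131360748-131360779, was 32 nt long and had a log2 fold of 4.73 (26.6-fold) and a −log10 p of 45.2, the highest −log10 p of the gene. It ranked 224th by log2 fold among the 2925 PDS peaks. Its direct neighbour at chr9:131360734-131360747 came next, with a log2 fold of 4.58 (23.9-fold) and a −log10 p of 39.7. The third, at chr9:131370305-131370328, had a log2 fold of 4.41 (21.3-fold) and a −log10 p of 20.5. The fourth stood alone at chr9:131348031-131348088, with a log2 fold of 4.34 and a −log10 p of 19.5. The fifth, at chr9:131370253-131370304, abutted the third and had a log2 fold of 4.27 and a −log10 p of 19.1. None of the 5 overlapped a Ctrl peak; the nearest Ctrl peaks were between 1282 and 23556 nt away.

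The remaining PDS peaks were of moderate and rather even enrichment. Over all 32 the lowest log2 fold was 3.01, the median 3.75 and the highest 4.73, with quartiles of 3.56 and 3.97. In the other 2893 PDS peaks the median was 3.59, the quartiles were 3.26 and 4.06, and the highest value was 6.31. The middle of the SPTAN1 distribution thus lay 0.16 higher on the log2 scale, while its upper quartile lay slightly lower. The highest values are not compared, since a maximum rises with the number of peaks. A log2 fold between 3.5 and 4 was reached by 18 of the 32 peaks (56.3%), against 28.5% of the other PDS peaks. A log2 fold of at least 4 was reached by 7 of them (21.9%), near the 27.6% of the whole PDS list. None reached 4.8, which 6.43% of the other PDS peaks did, and 4 lay under 3.3, close to the limit of the list (12.5%, against 27.9% elsewhere). These bands were set after the values had been seen. The −log10 p of the 32 peaks ranged from 6.69 to 45.2 with a median of 20.5, against a median of 17.7 elsewhere, and none had the stand-in value of 400 that 82 other PDS peaks carried.

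**Figure D2:**
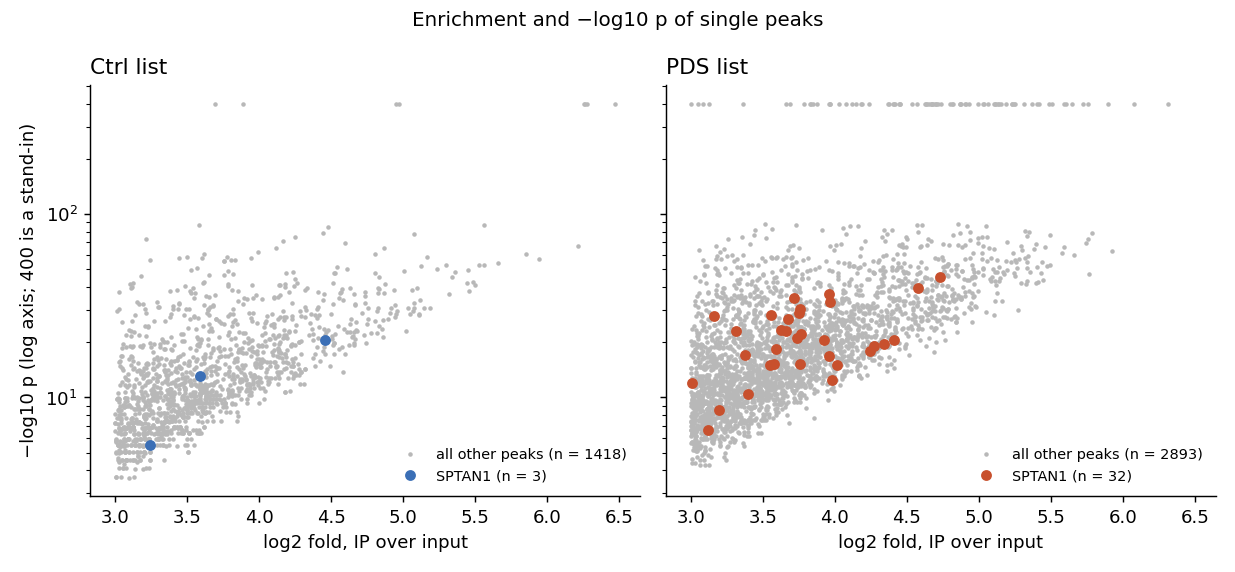
Log2 fold of IP over input (x axis) against −log10 p (y axis, logarithmic) for every peak of the Ctrl list (left) and the PDS list (right), with SPTAN1 peaks in colour and all others in grey. The 32 SPTAN1 peaks of the PDS list lie between log2 folds of 3.01 and 4.73 and below the stand-in value of 400.

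Number, enrichment and width of the PDS peaks differed along the gene. When the window was divided into 10 equal stretches of 8.12 kb and peaks were placed by their midpoints, the counts from 5′ to 3′ were 0, 0, 0, 4, 3, 7, 9, 3, 6 and 0. The 3′ part, from the sixth stretch on, held 25 of the 32 peaks (78.1%, exact 95% binomial interval 60.0 to 90.7%, counting error only) and the 5′ part held 7. Peaks of 1 transcript are not independent, and all 13 that directly touched another lay in the 3′ part. The interval therefore cannot be read as the full uncertainty of this share. The stretches were equal on the genome, and their exon content was not known. By covered bases the 3′ share was 67.0%, since its peaks were shorter, with a median width of 33 nt against 65 nt. The median log2 fold was 3.76 in the 3′ part and 3.38 in the 5′ part, where only the lone peak at 33.2 kb exceeded 4. The 7 peaks of the 5′ part ranged from 3.01 to 4.34. Touching peaks, all in the 3′ part, had higher folds than the others (medians 3.96 and 3.59). The difference along the gene was not separated from this. Both PDS peaks that met a Ctrl peak lay in the 5′ part. Downstream of the second of these sites the PDS list had 28 further peaks, while the Ctrl list had none before the peak at 80.8 kb.

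SPTAN1 peaks were short under PDS. Their median width in the PDS list was 37.5 nt (4 to 93 nt), against 63 nt for the other PDS peaks, and 5 of the 32 were under 20 nt (15.6%, against 14.7% elsewhere). In SPTAN1 13 of the 32 PDS peaks directly touched another (40.6%), as did 40.5% of all PDS peaks, and they formed 5 runs. The 19 peaks that touched no other were also narrow, with a median of 42 nt against 77 nt for the 1720 such peaks elsewhere. Short PDS peaks were not particular to SPTAN1, where 32 peaks covered 1350 nt. In FLNA 72 PDS peaks covered 2099 nt, in MYH9 33 covered 1555 nt and in PLEC 48 covered 2289 nt. Those of SPTBN1 (49 in 2735 nt) and MACF1 (23 in 2116 nt) were wider. None of the 3 Ctrl peaks touched another, where 20.3% of all Ctrl peaks did.

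The longest run had 4 peaks in 67 nt, at chr9:131360717-131360783, and held the 2 most enriched peaks of the gene. From 5′ to 3′ its log2 folds were 3.77, 4.58, 4.73 and 3.96, over pieces of 17, 14, 32 and 4 nt. Enrichment therefore rose towards the third piece and was lower on both flanks. The run of 3 peaks at chr9:131356467-131356652 spanned 186 nt and had log2 folds of 3.56, 3.96 and 3.63, again highest inside. Among all 128 PDS runs of 3 or more peaks the highest fold lay inside in 48 (37.5%). The other 3 runs were pairs: 4.27 and 4.41 at chr9:131370253-131370328, 3.93 and 3.74 at chr9:131370409-131370467, and 3.96 and 3.76 at chr9:131380297-131380378. The first and second of these pairs were 80 nt apart, the shortest gap between regions of the gene. A further pair at chr9:131381150-131381216, with log2 folds of 3.75 and 3.20, was separated by 5 nt and closed the chain. Peaks that touched another had a higher median log2 fold than those that did not, 3.96 against 3.59 in SPTAN1 and 3.80 against 3.47 in the other PDS peaks.

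**Figure D3:**
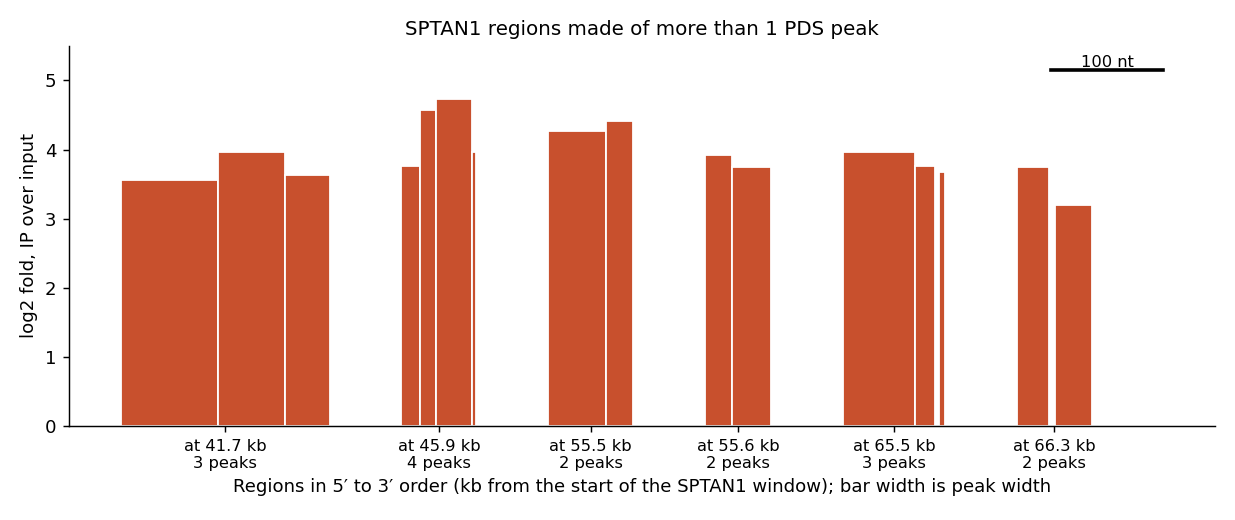
The 6 SPTAN1 regions that hold more than 1 PDS peak within 50 nt, in 5′ to 3′ order; the height of a bar is the log2 fold of the peak over input, its width the width of the peak in nt (scale bar 100 nt). In the region of 4 peaks at 45.9 kb the log2 fold is highest in the third piece, at 4.73.

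The window held no peak on the minus strand in either list. The nearest plus-strand peaks after the window lay 55.5 kb (Ctrl) and 55.6 kb (PDS) downstream, and those before it lay 35295.4 kb (Ctrl) and 29744.6 kb (PDS) upstream. Between the last PDS peak and the 3′ border of the window, the Ctrl peak at the gene end was the only one listed.

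Among loci with many PDS peaks, SPTAN1 was one of those with few Ctrl peaks. The locus with its 32 PDS peaks ranked 7th by PDS peaks, a place that depends on the chaining: it was 41st with gaps of up to 1000 nt, which split the gene into 15 loci, and 10th with gaps of up to 50000 nt. The Ctrl peak at the 3′ end, 14398 nt away, was not chained to it and formed a locus of its own. In the whole window 91.4% of the peaks came from the PDS list, and in the locus with its 32 PDS peaks 94.1%. The median over the 51 loci with at least 10 PDS peaks was 70.6%. In 9 other loci of this size the share was as high as in the SPTAN1 window or higher, and 6 of these had no Ctrl peak. SPTAN1 was chosen by these counts, and nothing is read from its distance to the median. The 7 other loci with at least 30 PDS peaks had between 3 and 43 Ctrl peaks. Outside the genes treated below, the 3 loci of at least 10 PDS peaks whose PDS share was nearest to that of SPTAN1 were shorter. They were chrX:53426608-53440208 on the minus strand (2 Ctrl and 17 PDS peaks), chr11:61906189-61916251 on the plus strand (1 and 15) and chr6:151670538-151674102 on the plus strand (3 and 24). Likeness here is the PDS share of peaks alone, 89.5, 93.8 and 88.9% in this order. The locus chr2:74588425-74605372 on the minus strand (2 and 16) tied with the last of them and was placed after it for its fewer PDS peaks.

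**Figure D4:**
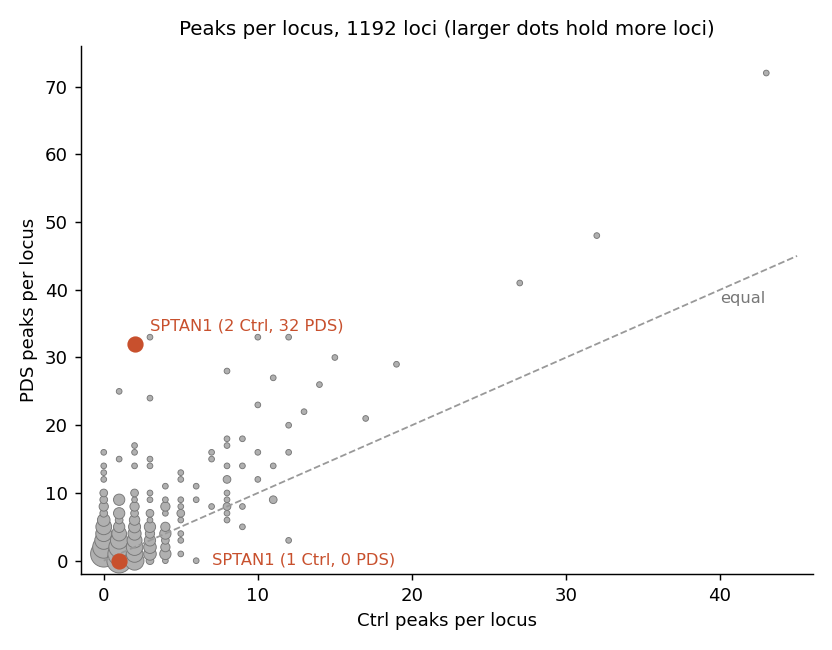
Ctrl peaks (x axis) and PDS peaks (y axis) of each of the 1192 loci made by chaining peaks over gaps of up to 10000 nt; larger dots stand for more loci with the same counts, and the dashed line marks equal counts. SPTAN1 falls into a locus with 2 Ctrl and 32 PDS peaks and a locus with 1 Ctrl and 0 PDS peaks.

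Beta spectrin SPTBN1, whose product forms the spectrin rod together with that of SPTAN1, showed another distribution of peaks. It held 27 Ctrl and 49 PDS peaks, in 18 and 20 regions, and 33 of the 49 under PDS met an untreated peak (67.3%), against 2 of 32 in SPTAN1. Its PDS peaks were also more enriched, with a median log2 fold of 5.09 against 3.75. The mRNAs of these 2 partner chains, SPTBN1 and SPTAN1, thus had 27 and 3 peaks without PDS and 49 and 32 with it. Numbers of peaks depend on the amount of each mRNA as well, which these lists do not measure, so binding per molecule cannot be told apart from abundance.

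MYH9, a non-muscle myosin heavy chain that moves along actin, had nearly the same PDS share of peaks as SPTAN1, 91.7 against 91.4%. It had 3 Ctrl and 33 PDS peaks, with 5 of the 33 overlapping a Ctrl peak, in 2 and 16 regions, and a median log2 fold of 3.89 in the PDS list. Unlike in SPTAN1, all 3 of its Ctrl peaks met a PDS peak. The actin cross-linker FLNA was closer to SPTBN1, with 43 Ctrl and 72 PDS peaks, in 30 and 32 regions. Of its 72 PDS peaks 50 overlapped a Ctrl peak, and the median log2 fold of the 72 was 4.77. These genes were chosen for their peak numbers, and the differences between them have no test.

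Of 24 other genes of the membrane skeleton and its actin links, 10 had a peak in either list, 7 in Ctrl and 10 in PDS. More PDS than Ctrl peaks were found in 9 of these 10 and as many in 1. The share of all loci was the 63.1% given above, in a PDS list that is longer as a whole. Touching pieces count as separate peaks here. Of all PDS peaks 40.5% touched another, and of all Ctrl peaks 20.3%. Gene windows and loci are unlike units, and the loci include those with a single peak. All 51 loci with at least 10 PDS peaks had more PDS than Ctrl peaks, with a lowest PDS share of 54.5%. No excess in these genes is therefore read from the 9 of 10. Summed over the 24 genes, 115 peaks were listed in Ctrl and 254 under PDS. Their ratio was 2.21, beside 2.06 for all peaks and 10.7 for SPTAN1, which was chosen for it. These ratios count touching pieces as separate peaks. Joined within 50 nt, all peaks gave 1176 Ctrl and 2036 PDS regions, and those of SPTAN1 3 and 22. Most peaks of the 24 genes, 102 Ctrl and 169 PDS, lay in FLNA, SPTBN1 and PLEC, set apart after their counts had been seen. The other 7 genes with a peak had 13 and 85, a ratio of 6.54. Leaving out the genes with the most Ctrl peaks raises this ratio by itself, and nothing is read from it. MYH9 alone had a ratio of 11, so a high PDS share was not particular to SPTAN1. PLEC, the giant linker plectin, had 32 Ctrl and 48 PDS peaks, but fewer regions under PDS (19) than in Ctrl (26). MACF1, which links microtubules to actin, had 5 and 23 peaks, in 4 and 18 regions. ACTN4, an alpha-actinin, had 4 and 6, in 2 and 6 regions. Peaks under PDS alone were found in MYH10, a second non-muscle myosin (16 peaks), and in ACTN1 (2 peaks). DST, a cytolinker of the MACF1 family, had 4, also under PDS alone. This was not particular to these genes. Of the 51 loci with at least 10 PDS peaks, 6 had no Ctrl peak, that of MYH10 among them. EPB41L2, of the protein 4.1 family, had 1 peak in each list, at different places. No peak was listed in the other 14, which include the red-cell beta spectrin SPTB, the ankyrins ANK1, ANK2 and ANK3 that tie spectrin to membrane proteins, and the adducins ADD1, ADD2 and ADD3 that cap actin at spectrin junctions.

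**Figure D5:**
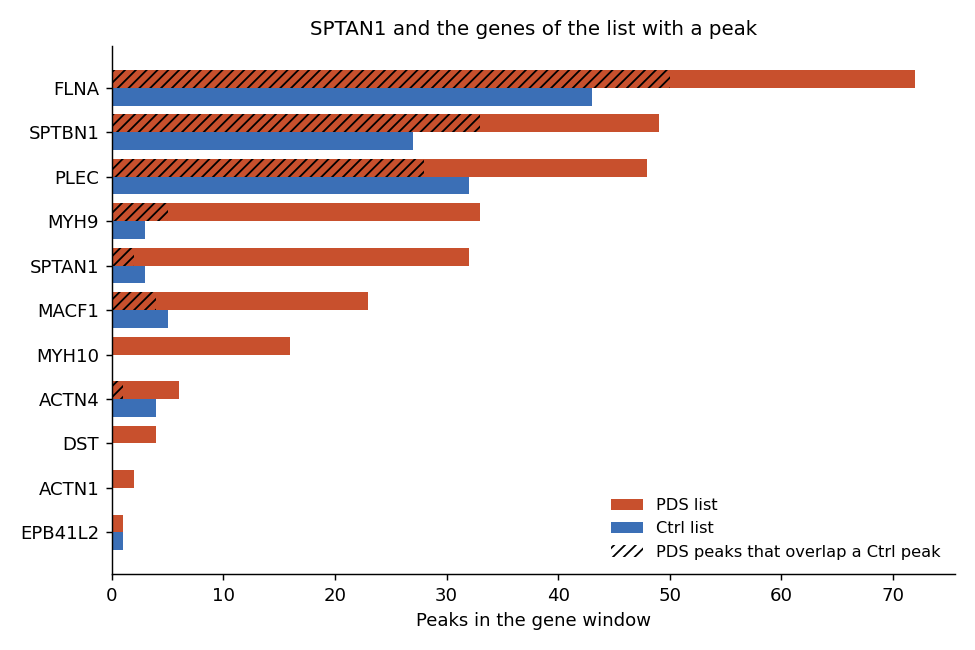
Number of peaks per gene window in the PDS list (red) and the Ctrl list (blue) for SPTAN1 and the 10 listed genes with a peak; hatching marks the PDS peaks that overlap a Ctrl peak. In SPTAN1 2 of 32 PDS peaks are hatched, in SPTBN1 33 of 49.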

How the data were processed

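Binding sites of G3BP1 were measured by seCLIP in 8 libraries, IP and input in 2 replicates from Ctrl and PDS cells. Per the submitters' processing notes, cutadapt, UMI-tools and STAR were used, with hg19; how peaks were called and replicates merged is not given in the sources used here. The authors deposited 1 list per condition, without a header. Its deposited −log10 p and log2 fold values were identified from their range and the usual eCLIP layout, and 400 was read as a stand-in for −log10 p. Depth per library is unknown. Nothing says whether replicates were separate cultures.

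Starts were taken as counted from 0 and are printed from 1. Peaks were shared if at least 1 nt overlapped on the same strand (pandas 2.3.3 and numpy 2.4.6 under python 3.11.15; intervals with scipy 1.17.1; figures with matplotlib 3.10.9). The overlap and merging steps were tested on simulated data. The planned parts on transcript regions and quadruplex patterns were not run without an hg19 genome. Windows of the 24 other genes were hg19 positions written by hand from general knowledge, not from an annotation; 2 of them differ by over 10% in length from the GRCh38 gene of RefSeq. Some genes of the planned list are not reported here. By rule, single peaks named were all Ctrl peaks, the 5 PDS peaks of highest log2 fold, the longest run and all overlapping peaks; single genes were SPTBN1, FLNA, MYH9, every listed gene with a peak and the 3 loci nearest in PDS share. The other runs and pairs, the tied locus and the listed genes without a peak were named outside this rule, after their values had been seen. The members, gene list and rules were chosen with earlier results of these data known.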

Additional observations from a re-analysis of the deposited data

How the results depend on the processing

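Among 21 alternatives, 12 were close to the reported value, 9 moved and 0 reversed. Close means within 1.5 times for counts and ranks, within the 95% interval for the share of PDS peaks in the 3′ part (60.0 to 90.7%) and within 1 SD of the peaks for the fold. Counts and ranks cannot change sign, so most alternatives could not reverse. Some close outcomes were also fixed by the spacing of the peaks. The Ctrl peaks lay 3431 and 48866 nt apart, so merging within at most 100 nt had to leave all 3. The nearest unshared peak was 1182 nt from the other list, so sharing within 100 nt could add none. Nothing is read from these outcomes. The limit for the 3′ share is wide and treats peaks of 1 transcript as independent, which they are not. By covered bases this share was 67.0%, against 78.1% by peaks, and still counted as close. The limit for the fold is loose too. Single SPTAN1 PDS peaks had quartiles of 3.56 and 3.97, and the difference judged was 0.16. Limits of 4 for the log2 fold and 5 for −log10 p left 1 Ctrl and 7 PDS peaks in SPTAN1. They left 0 shared in either list, since fewer peaks enter. A log2 fold of at least 4 was reached by 22.0% of all Ctrl and 27.6% of all PDS peaks. Shortening the PDS list to the 1421 most enriched of its 2925 peaks left 21 of the 32 SPTAN1 peaks. Merging within 100 nt gave 21 PDS regions. Under reciprocal overlap of 50%, 1 Ctrl and 1 PDS peak were shared. The rank by PDS peaks fell from 7 to 41 when loci were chained over gaps of up to 1000 nt, which splits SPTAN1 into 15 loci. The difference in median log2 fold between SPTAN1 and other PDS peaks, 0.16, ranged from 0.13 to 0.17. No paired analysis was possible because the replicates were combined before deposit, and leaving out a replicate could not be tried either. Peaks below the limits of the lists cannot be seen, and the depth behind a missing peak is unknown.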
